A study of Rattus norvegicus with 18 samples.

Results

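Nuclear genes for the subunits and assembly factors of cytochrome c oxidase and for the subunits of the mitochondrial ATP synthase were followed in rat retina. They were taken as every gene whose symbol in the probe annotation began with Cox and a digit, or with Atp5, each read from its brightest probe set. This gave 38 genes of the 14506 with a single symbol, 22 for the oxidase and 16 for the synthase, measured by 44 of 29214 probe sets. None of the 38 is one of the subunit genes carried by mitochondrial DNA.

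Retinas came from adult Sprague Dawley rats aged P80 to P120 and raised in 5 lux cyclic light, and each of 6 groups had 3 arrays (Affymetrix rat Gene 1.0 ST, 18 in all), called biological replicates in the design text. Control animals had no pretreatment and no bright light. Saffron animals ate the spice for 3 weeks, at 1 mg per kg each day, PBM (photobiomodulation) animals received 670 nm light for 3 min a day on 5 days, and both were collected 24 h after the last dose. The LD (light damage) group was exposed to white light for 24 h, stated as 1000 lux in one label and 100 lux in another, and the SafLD and PBMLD groups had the same saffron or PBM course before 24 h at 1000 lux. All groups, control included, were fed the vegetable matrix that carried the saffron. The methods give 4 animals per group, of both sexes, and the labels give no sex for an array.

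Cytochrome c oxidase, complex IV of the respiratory chain, passes electrons from cytochrome c to oxygen and pumps protons across the inner mitochondrial membrane. ATP synthase, complex V, lets those protons flow back through its membrane ring and uses the rotation to make ATP in its F1 head. Photoreceptors hold dense mitochondria in their inner segments, and the oxidase, with its copper and heme centres, is the proposed absorber of 670 nm light, which is why the 2 enzymes were described apart.

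Values were log2 signals from RMA, a difference was the mean of one group minus the mean of another on that scale, and a gene passed the test when its Benjamini-Hochberg adjusted p in limma, over all 29214 probe sets, was below 0.05. Array medians lay between 6.12 and 6.19. Of the 38 genes, 34 lay above the array median on at least 1 array. The other 4 were Cox6a2, Cox8b and Cox8c, isoforms known from heart and skeletal muscle or testis, and the pseudogene Cox6c-ps1, all below the array median on all 18 arrays. Their values ran from 3.27 to 5.53. Within groups the SD of a gene ranged from 0.0952 for Atp5f1d to 0.411 for Cox7b, with a median of 0.246. In a bulk retina sample, fewer cells of a type and less RNA per cell cannot be told apart.

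Across the 5 comparisons with control, which share the same 3 control arrays, 3 of the 38 genes passed the test, all of them lower in SafLD. They were Cox4i2 and Cox6b2 of the oxidase and Atp5mg of the synthase. Atp5mg was also lower in SafLD than in saffron. No gene of either enzyme passed in LD, PBM, saffron or PBMLD against control.

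**Figure D1:**
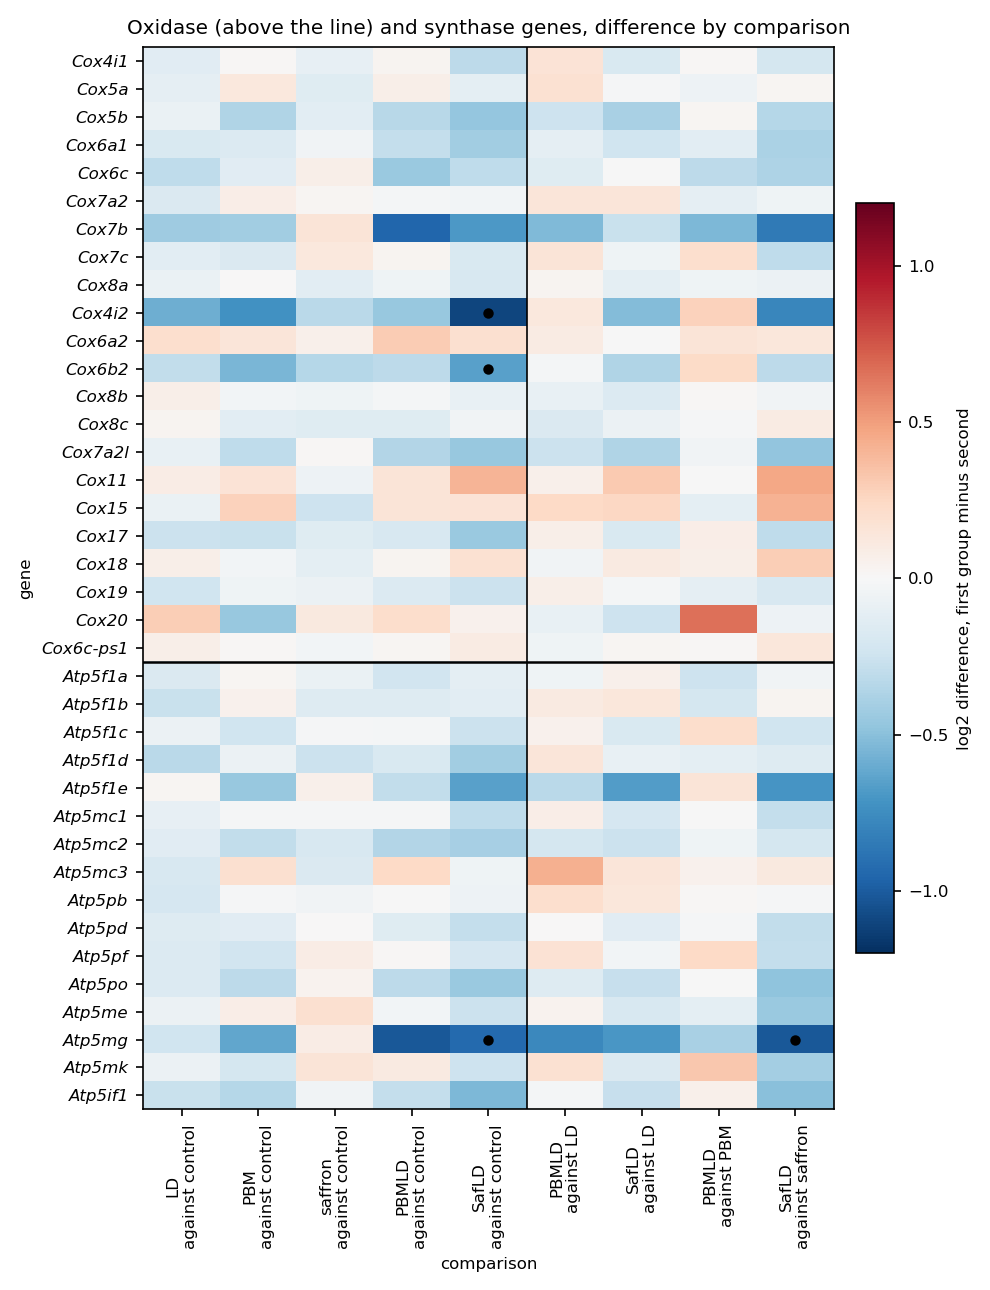
Log2 difference of each of the 38 genes (rows, oxidase above the black line and synthase below it) in 9 comparisons (columns), blue where the first group was lower and red where it was higher. Black dots mark the 4 differences past the test: Cox4i2, Cox6b2 and Atp5mg in SafLD against control and Atp5mg in SafLD against saffron.

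The effect of 670 nm light alone is read from PBM against control. Over all probe sets 0.154% passed in this comparison, and 0 of 22 oxidase genes and 0 of 16 synthase genes did so. At an unadjusted p below 0.05, limma gave 4 oxidase genes and 1 synthase gene, beside 2909 of all 29214 probe sets. The oxidase differences had a median of -0.09, with 8 genes above and 14 below control, and the synthase differences a median of -0.17, with 4 above and 12 below, beside 0.011 over all named genes. Without control array 3 the synthase count below control was 8 of 16. Of the oxidase genes, 6 lay lower without overlap between groups and 1 higher, and the synthase gave the same numbers, while 13.5% of named genes lay lower in this way and 11.8% higher. The oxidase genes lower without overlap included Cox4i2, Cox6b2 and Cox20, and the higher one was Cox11.

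The size of change that these arrays allow in PBM was bounded by the intervals. The 95% interval lay within 1 log2 unit of 0, a 2-fold change, for 20 of 22 oxidase genes and 15 of 16 synthase genes. It lay within 0.5 of 0 for 9 and 6 of them. The catalytic synthase subunit Atp5f1b differed by 0.05 (interval -0.20 to 0.31). Cox4i1, the form of subunit 4 found in most tissues, read 10.13, 10.23 and 10.38 in PBM and 10.06, 10.14 and 10.49 in control. The groups overlapped, and the difference was 0.015 with an interval from -0.43 to 0.46 (SE 0.21, adjusted p = 0.988).

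**Figure D2:**
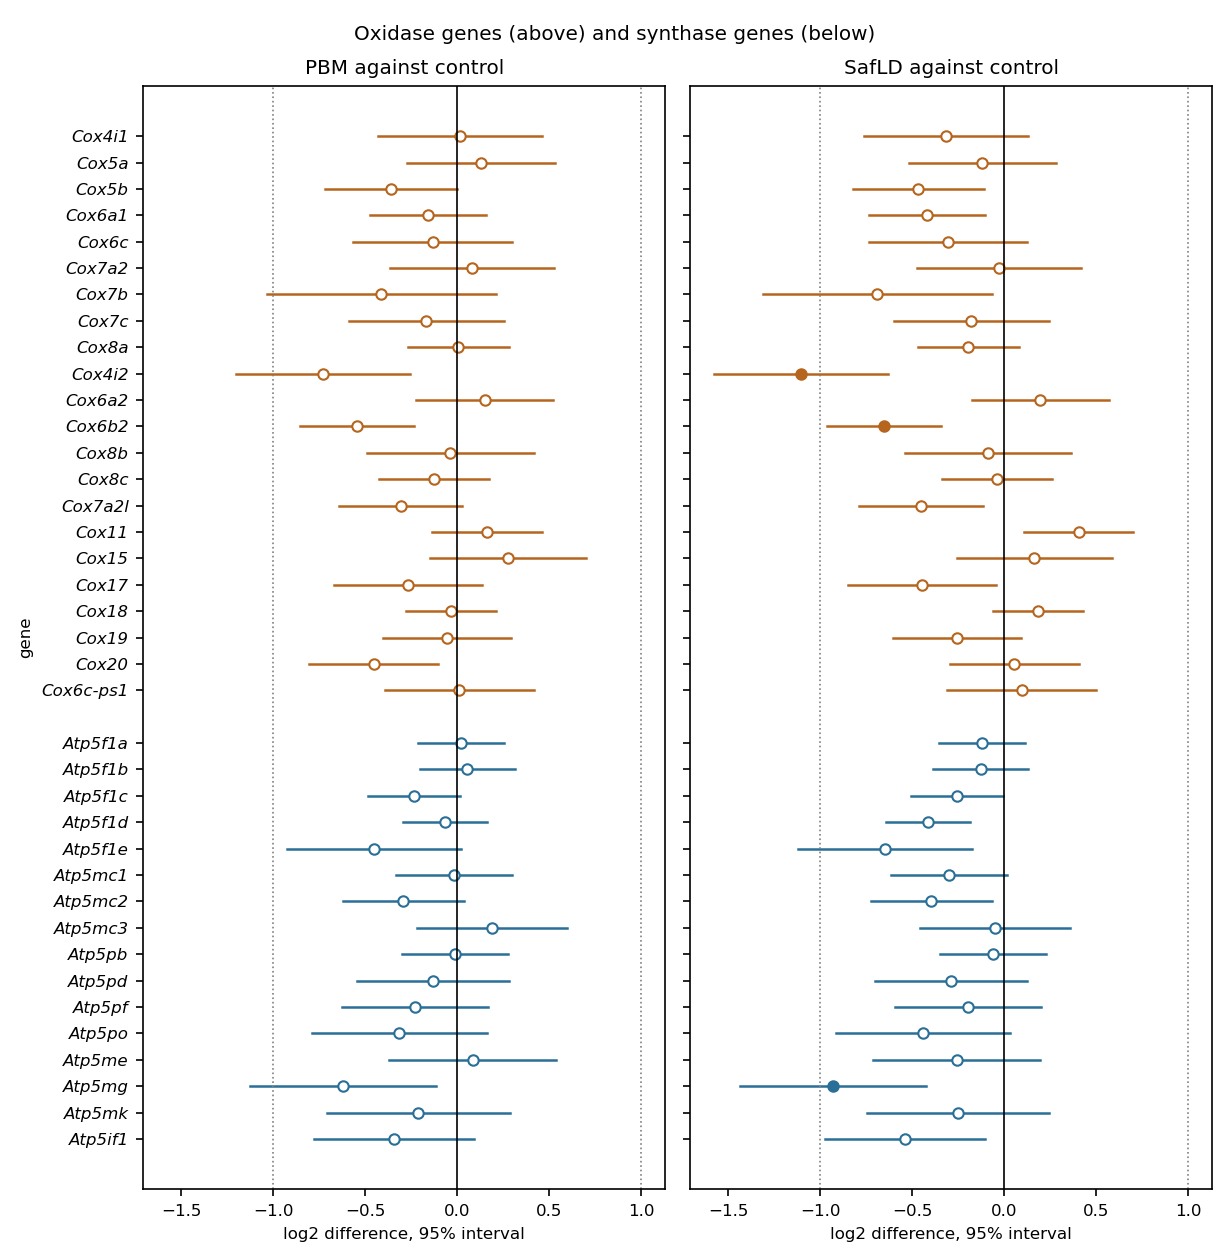
Log2 difference with its 95% interval (x axis) for each gene (y axis, oxidase in brown and synthase in blue), PBM against control on the left and SafLD against control on the right. Filled points passed the test and dotted lines mark 2-fold. In PBM no point is filled, and in SafLD all 16 synthase points lie below 0, although 4 of them turn above it when the values are quantile normalized once more.

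Among the 22 oxidase genes, 9 were subunits made in most tissues, namely Cox4i1, Cox5a, Cox5b, Cox6a1, Cox6c, Cox7a2, Cox7b, Cox7c and Cox8a. None passed the test in any of the 9 comparisons between groups. With array weights Cox5b, Cox6a1 and Cox7b passed lower in SafLD against control (adjusted p = 0.0498, 0.0192 and 0.044). In that setting Cox6a1 and Cox7b also passed lower in SafLD against saffron, and Cox7b in PBMLD against control and against LD. All 9 lay below control in SafLD (median -0.31, from -0.69 to -0.03; 8 with cyclic loess or quantile normalization), and all 9 in LD (median -0.14). Without control array 3 the counts were 8 in SafLD and 6 in LD, and without LD array 3 the LD count was 6. With array weights 5 of 9 lay below control in LD. Over all 22 oxidase genes, 16 lay below control in SafLD and 15 in LD, or 13 and 12 without control array 3. In PBM and in saffron 5 of 9 lay below control, and in PBMLD 6 of 9, but these counts turned on single arrays. In PBM the count was 8 without control array 1 or 2 and 4 without control array 3. In saffron it was 8 without saffron array 2, 2 without control array 3 and 3 without saffron array 3. In PBMLD it was 9 without PBMLD array 2, and 4 without PBMLD array 1 or control array 3.

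Cox7b, a small subunit of the oxidase, had the widest spread of the 38 genes. It read 8.93, 9.03 and 9.45 in control, 7.87, 9.02 and 7.66 in PBMLD, and 8.68, 8.47 and 8.18 in SafLD. PBMLD array 2 sat among the control values and the other PBMLD arrays were the lowest of all 18, while the SafLD arrays lay below all control arrays. Its difference from control was -0.95 in PBMLD (SE 0.29, adjusted p = 0.186) and -0.69 in SafLD (SE 0.29, adjusted p = 0.239). Without PBMLD array 2 the PBMLD difference was -1.37 (adjusted p = 0.0087). By contrast the SD within groups of Cox8a, the smallest of these subunits' spreads, was 0.14.

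Of the 5 tissue isoforms, the ones that reached the array median were Cox4i2 and Cox6b2. Cox4i2, the subunit 4 isoform known for its link to low oxygen and for high expression in lung and in pericytes, read 8.71, 8.53 and 8.93 in control. In SafLD it read 7.83, 7.50 and 7.53, so that every SafLD array lay below every control array. The mean fell from 8.72 ± 0.20 to 7.62 ± 0.18 (SD, n = 3), a difference of -1.10 (SE 0.22, 2.15-fold, adjusted p = 0.0129). In PBM its arrays read 7.98, 7.98 and 8.03, and in LD 8.22, 8.23 and 7.97. These too lay below control without overlap, with differences of -0.73 in PBM (adjusted p = 0.28) and -0.59 in LD (adjusted p = 0.358), which did not pass. With array weights the PBM difference was -0.68 and passed (adjusted p = 0.0215). In saffron it read 8.55, 8.42 and 8.23, and in PBMLD 7.59, 8.90 and 8.32. Both overlapped control. The PBMLD difference was -0.46 (adjusted p = 0.438), and without PBMLD array 2 it was -0.77 and passed (adjusted p = 0.0491).

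Against the other groups Cox4i2 did not pass in SafLD. It was -0.78 against saffron (adjusted p = 0.0851) and -0.52 against LD (adjusted p = 0.47). With array weights Cox4i2 passed lower against saffron (-0.88, adjusted p = 0.0036) and against LD (-0.63, adjusted p = 0.0414). In the fit of the compared groups alone it passed against saffron (adjusted p = 0.0469). The call with control was lost when control array 1 or 3 or SafLD array 2 or 3 was left out, with adjusted p from 0.0518 to 0.0733. Cox4i1 read 10.12, 9.86 and 9.76 in SafLD, overlapping control, and differed by -0.32 (SE 0.21, adjusted p = 0.49).

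Cox6b2, an isoform of subunit 6B known from testis, read 6.52, 6.44 and 6.85 in control and 5.93, 6.01 and 5.91 in SafLD. The SafLD arrays lay close together and none reached a control value. The difference was -0.65 (SE 0.15, 1.57-fold, adjusted p = 0.0234). In PBM it read 5.82, 6.26 and 6.09, again below every control array, with a difference of -0.55 (adjusted p = 0.206). Readings of 6.34, 6.28 and 6.30 in LD were also all below control, with a difference of -0.30 (adjusted p = 0.554). Cox6b2 sat close to the array median, below it on 8 of 18 arrays. The call in SafLD was lost when any 1 of control arrays 1 and 3 or of the 3 SafLD arrays was left out (adjusted p from 0.0606 to 0.11). Cox6b1, the form of subunit 6B made in most tissues, was not among the 38 genes.

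In SafLD against control, 2.8% of all probe sets passed in either direction, 1.34% of all probe sets passed lower, and 0.373% passed lower by more than 2-fold. Against this, 2 of 22 oxidase genes and 1 of 16 synthase genes passed lower, and only Cox4i2 was lower by more than 2-fold. At an unadjusted p below 0.05 there were 8 oxidase and 6 synthase genes, beside 4934 of all 29214 probe sets. Of these genes only Cox11 lay higher than control.

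The 250 bases before the annotated start were taken from RefSeq (GRCr8) for Cox6b2, an isoform that passed, and for Cox4i1, which did not, to show what they hold of 2 motifs of nuclear respiratory genes. These are GCATGCGC, bound by NRF1, and CCGGAAG, bound by GABPA and other ETS factors, searched on both strands. Cox6b2 lies at chr1:78122621-78122870 on the plus strand and Cox4i1 at chr19:65630133-65630382 on the plus strand. Neither stretch holds either motif, so both are in lower case throughout.
Cox6b2 promoter: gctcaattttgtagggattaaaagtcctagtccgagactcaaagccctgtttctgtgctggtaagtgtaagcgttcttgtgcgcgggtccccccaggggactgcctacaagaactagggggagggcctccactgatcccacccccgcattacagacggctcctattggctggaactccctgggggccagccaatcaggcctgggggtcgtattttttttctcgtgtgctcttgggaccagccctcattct
Cox4i1 promoter: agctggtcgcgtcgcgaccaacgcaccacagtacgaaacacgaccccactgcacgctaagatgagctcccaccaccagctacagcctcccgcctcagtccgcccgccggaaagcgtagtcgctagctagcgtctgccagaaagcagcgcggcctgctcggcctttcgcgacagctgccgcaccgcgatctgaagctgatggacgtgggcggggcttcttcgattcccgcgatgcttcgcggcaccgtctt
The NRF1 motif was in 2 of 18 oxidase promoters (Cox18 and Cox8c) and the ETS motif in 6 of 18, beside 2.2% and 7.27% of all 33469 promoters of the same length. A match is a stretch of letters, not a measured site.

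Assembly factors of the oxidase were divided. In SafLD 4 of the 6 lay above control (median 0.11), and none passed the test. Cox11, which delivers copper to the catalytic core, read 7.56, 7.84 and 7.78 in SafLD and 7.37, 7.37 and 7.24 in control. All SafLD arrays were higher, with a difference of 0.40 (SE 0.14, adjusted p = 0.144). With array weights Cox11 passed higher in SafLD against control (0.43, adjusted p = 0.0167) and against saffron (0.53, adjusted p = 0.0095). Cox18, which inserts a core subunit into the membrane, also lay higher without overlap (0.18, adjusted p = 0.457). Cox17, the copper chaperone, differed by -0.45 (adjusted p = 0.236), and Cox19, another copper handling protein, lay lower without overlap. Among oxidase genes in SafLD 6 lay lower and 2 higher without overlap, and over named genes the shares were 14.0% and 14.4%.

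Cox20, a chaperone for a core subunit, was lowest in PBM. Its PBM arrays read 8.30, 8.18 and 8.13, below all arrays of the other groups, which ran from 8.52 to 9.30. The difference from control was -0.45 (SE 0.17, adjusted p = 0.377). In PBMLD it read 8.55, 9.19 and 8.86, which was 0.66 above PBM without overlap (SE 0.17, adjusted p = 0.137). Neither difference passed, while with array weights both did (adjusted p = 0.0431 and 0.0287). Cox7a2l, which joins complexes III and IV into supercomplexes, was -0.45 in SafLD and -0.31 in PBM, without overlap in both (adjusted p = 0.147 and 0.547). With array weights it passed lower in SafLD against control and against saffron (adjusted p = 0.0088 and 0.0156).

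**Figure D3:**
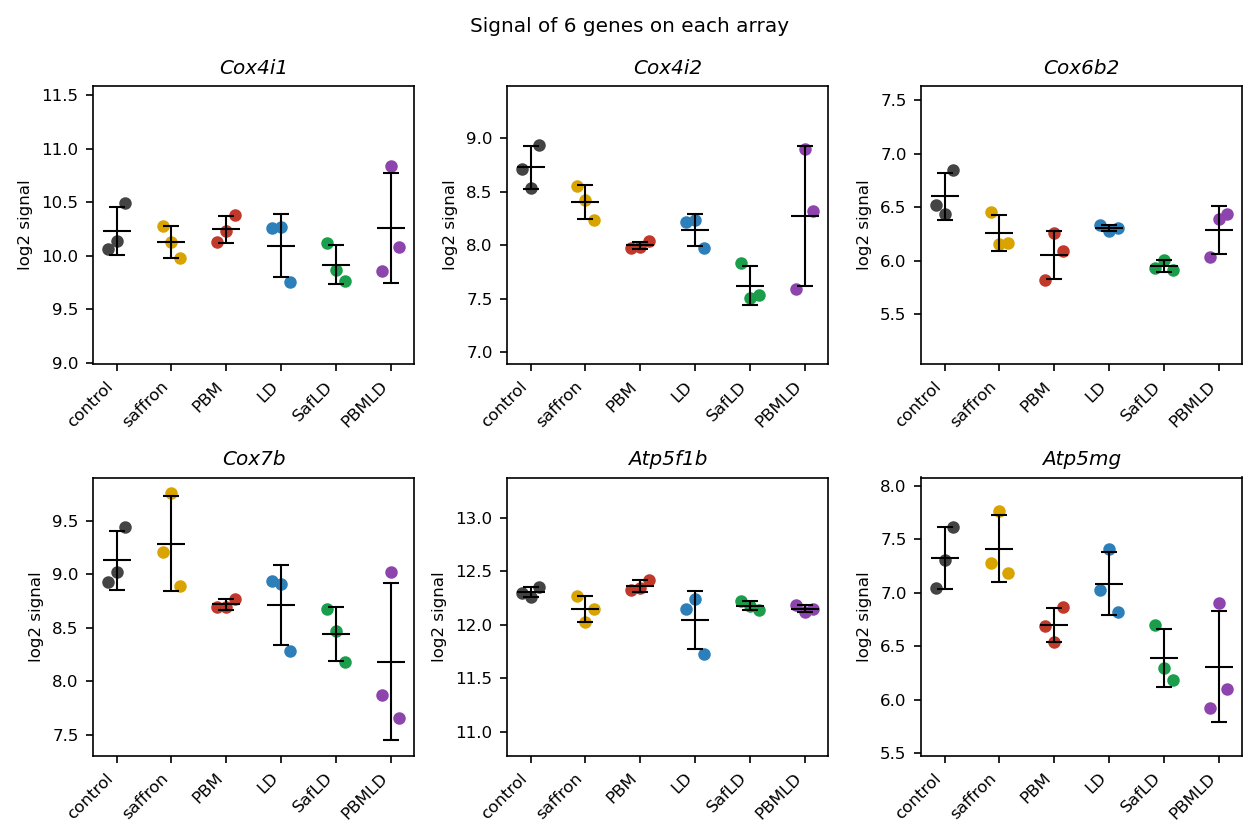
Log2 signal (y axis, each panel spanning 2.6 units) of 6 genes on each array (points) by group (x axis), with the group mean and SD (n = 3) in black. Cox4i2 lies lowest in SafLD, and array 2 of PBMLD stands above the other PBMLD arrays for Cox4i1, Cox4i2, Cox7b and Atp5mg.

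The ATP synthase genes lay below control in SafLD in 16 of 16 cases, with a median of -0.27 beside 0.0074 over all named genes, and in 12 of 16 when the values were quantile normalized once more. Differences ran from -0.93 for Atp5mg to -0.05 for Atp5mc3. Groups did not overlap for 8 of the 16, all lower, while 14.0% of named genes lay lower in this way and 14.4% higher. In LD 15 of 16 lay below control (median -0.16) and in PBMLD 13 of 16 (median -0.15). Without control array 3 these counts were 11 and 9, and the SafLD count was 15. The PBMLD count was 8 without PBMLD array 1, 16 without PBMLD array 2 and 9 without PBMLD array 3.

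Both genes of the F1 head, which carries the catalytic sites, had small SDs within groups, 0.10 for Atp5f1a and 0.13 for Atp5f1b. In LD alone the SD of Atp5f1b was 0.27, with LD array 3 well below the others. Atp5f1b, the catalytic beta subunit, read 12.30, 12.26 and 12.35 in control, 12.15, 12.24 and 11.73 in LD, 12.22, 12.17 and 12.14 in SafLD and 12.18, 12.12 and 12.15 in PBMLD. Each light-exposed array was below each control array. The difference was -0.26 in LD (adjusted p = 0.511), -0.13 in SafLD and -0.15 in PBMLD (adjusted p = 0.666 for both), and none passed. With the values quantile normalized once more, the SafLD and PBMLD differences turned to 0.055 and 0.033. Atp5f1a, the alpha subunit, differed by -0.18 in LD, -0.12 in SafLD and -0.23 in PBMLD.

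Subunits of the rotating central stalk lay lower in SafLD. Atp5f1d, the delta subunit, read 11.08, 11.05 and 11.22 in control and 10.82, 10.71 and 10.59 in SafLD, without overlap, and its difference of -0.41 (SE 0.11) missed the threshold narrowly (adjusted p = 0.0501). It passed with median centring, with dim probe sets left out, with a variance trend and robust fitting, and with array weights (adjusted p = 0.04, 0.0279, 0.0492 and 0.00723). Its LD arrays, 10.87, 10.83 and 10.67, and its saffron arrays, 10.94, 10.85 and 10.79, were also below every control array (-0.33, adjusted p = 0.233, and -0.26, adjusted p = 0.989). Atp5f1e, the epsilon subunit, was -0.65 in SafLD (adjusted p = 0.139) and 0.02 in LD. With array weights it passed lower in SafLD against control, saffron and LD (adjusted p = 0.0171, 0.0166 and 0.0487).

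The 3 genes for the c ring, Atp5mc1, Atp5mc2 and Atp5mc3, encode the same mature protein. Their SafLD differences were -0.30, -0.40 and -0.05. A dimmer probe set of Atp5mc2 gave -0.04 in SafLD and one of Atp5mc3 gave 0.08, so the probe sets of these genes disagreed. The 4 peripheral stalk genes had a median of -0.24 in SafLD and -0.16 in LD, and none passed.

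Atp5mg, subunit g of the membrane part, which helps synthase dimers form, showed the largest synthase difference. It read 7.04, 7.31 and 7.62 in control and 7.28, 7.76 and 7.18 in saffron. In SafLD it read 6.70, 6.29 and 6.19. Every SafLD array lay below every array of both groups. The difference from control was -0.93 (SE 0.24, 1.91-fold, adjusted p = 0.0462), and that from saffron was -1.02 (SE 0.24, 2.03-fold, adjusted p = 0.0335). Atp5mg read 5.92, 6.90 and 6.10 in PBMLD, all below control, with a difference of -1.01 (adjusted p = 0.0602) that passed without PBMLD array 2 (-1.31, adjusted p = 0.0055). In PBM its readings of 6.69, 6.54 and 6.87 were below every control array too, with a difference of -0.62 (adjusted p = 0.405). LD overlapped control (-0.24, adjusted p = 0.842).

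The SafLD call of Atp5mg was lost when any 1 of the 3 control arrays or of SafLD arrays 2 and 3 was left out (adjusted p from 0.065 to 0.19). The call against saffron was lost without saffron array 1 or 2 or SafLD array 2 or 3. RefSeq lists genes resembling Atp5mg, and signal from their RNA cannot be told apart here. The Atp5mg stretch before the start, at chr8:54130408-54130657 on the minus strand and shown in the gene's direction, holds both motifs, in capitals, the ETS motif as its reverse complement.
Atp5mg promoter: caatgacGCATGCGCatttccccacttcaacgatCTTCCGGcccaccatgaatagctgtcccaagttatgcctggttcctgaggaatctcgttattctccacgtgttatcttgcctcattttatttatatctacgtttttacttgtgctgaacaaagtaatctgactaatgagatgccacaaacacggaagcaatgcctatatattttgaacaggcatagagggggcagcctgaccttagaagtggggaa
The NRF1 motif was in 4 of 15 synthase promoters (Atp5mc2, Atp5me, Atp5mg and Atp5po) and the ETS motif in 5 of 15. Over both enzymes the SafLD median was -0.20 for the 15 genes with either motif and -0.28 for the 18 with neither.

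The other membrane part genes, Atp5me and Atp5mk, were -0.26 and -0.25 in SafLD. Atp5if1, the inhibitor that stops the synthase from running backwards, read 11.51, 11.46 and 11.91 in control and 11.34, 11.05 and 10.88 in SafLD. It lay lower in SafLD without overlap (-0.54, SE 0.21) but did not pass (adjusted p = 0.183). With array weights it passed (-0.51, adjusted p = 0.0336).

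For LD against control 1.11% of probe sets passed, and 0 of 38 genes. Unadjusted, 1 oxidase and 2 synthase genes had p below 0.05, beside 2799 of 29214 probe sets. In each list 4 genes lay lower without overlap and 0 higher, beside 10.9% and 8.59% of named genes. Those of the oxidase were Cox6c, Cox4i2, Cox6b2 and Cox19. In saffron against control 0.0% of probe sets passed. At an unadjusted p below 0.05 there were 1 oxidase and 1 synthase gene, beside 1343 of 29214 probe sets. In each list 1 gene lay lower without overlap, Cox19 and Atp5f1d, and none higher, beside 6.69% and 3.79%. The medians in saffron were -0.07 for the oxidase and -0.02 for the synthase, and -0.02 over all named genes. In PBMLD against control 0.753% passed. At an unadjusted p below 0.05 there were 4 oxidase and 2 synthase genes, beside 3494 of 29214 probe sets. Lower without overlap were 1 oxidase gene, Cox6b2, and 5 synthase genes, with none higher, beside 7.05% and 8.78%.

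Whether a pretreatment altered the level reached after light was asked against LD. PBMLD against LD had 0 of 38 genes past the test (0.284% of probe sets), with 0 oxidase and 2 synthase genes at an unadjusted p below 0.05, and medians of 0.0074 and 0.04. SafLD against LD had 0 of 38 as well (0.308%), with 5 and 2 genes at an unadjusted p below 0.05 and medians of -0.09 and -0.18. Light within PBM animals, PBMLD against PBM, gave 0 of 38 (0.329%), and 1 gene in each list unadjusted. Light within saffron animals, SafLD against saffron, gave Atp5mg alone (2.09% of probe sets in either direction, 0.958% lower), with 6 oxidase and 4 synthase genes unadjusted. Over all 29214 probe sets the unadjusted counts in these comparisons were 3360, 2791, 2372 and 4302, in the order given.

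The difference between the light effect with and without a pretreatment was tested by interaction terms. Neither was past the test for any of the 38 genes, where 0.00685% of probe sets passed for PBM and 0.14% for saffron. Unadjusted, 2 oxidase genes had p below 0.05 for PBM, Cox4i2 (0.86, interval 0.19 to 1.53) and Cox6b2 (0.53, interval 0.09 to 0.97), with an adjusted p of 0.999 each. For saffron 2 synthase genes did, Atp5mg among them (-0.78, interval -1.50 to -0.07, adjusted p = 0.815). Over all 29214 probe sets, 1244 had an unadjusted p below 0.05 for PBM and 1707 for saffron. In the saffron interaction Cox4i2 was -0.19 and Cox6b2 -0.014 (adjusted p = 0.954 and 0.995). Cox4i2, Cox6b2 and Atp5mg passed in SafLD and not in LD against control, but this does not show that SafLD and LD differ. None of them passed in SafLD against LD, where Cox4i2 was -0.52 and Cox6b2 -0.36. Atp5mg had a mean of 6.391 in SafLD and 7.085 in LD. With array weights Cox4i2 (-0.63, adjusted p = 0.0414) and Atp5mg (-0.82, adjusted p = 0.0235) passed lower in SafLD against LD, and Cox6b2 did not.

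Much of the variation among arrays was shared by the 2 enzymes. Control array 3 was the highest of its group for 18 of 22 oxidase genes and 15 of 16 synthase genes, PBMLD array 2 for 16 and 14, SafLD array 1 for 17 and 14, and saffron array 2 for 10 and 11. The array with the highest mean was the same for both lists in 5 of 6 groups. The deviations of the 18 array means from their group means had r = 0.966 between oxidase and synthase, and r = 0.948 without PBMLD array 2 and control array 3. Between the oxidase and the genes of complex III r was 0.92 (0.875 without those arrays) and with complex II 0.817 (0.674). With rod markers it was -0.23 (-0.0593), with lens markers 0.016 (0.116) and with pericyte markers 0.15 (0.424). These arrays share the authors' normalization, and the values are given as a description.

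**Figure D4:**
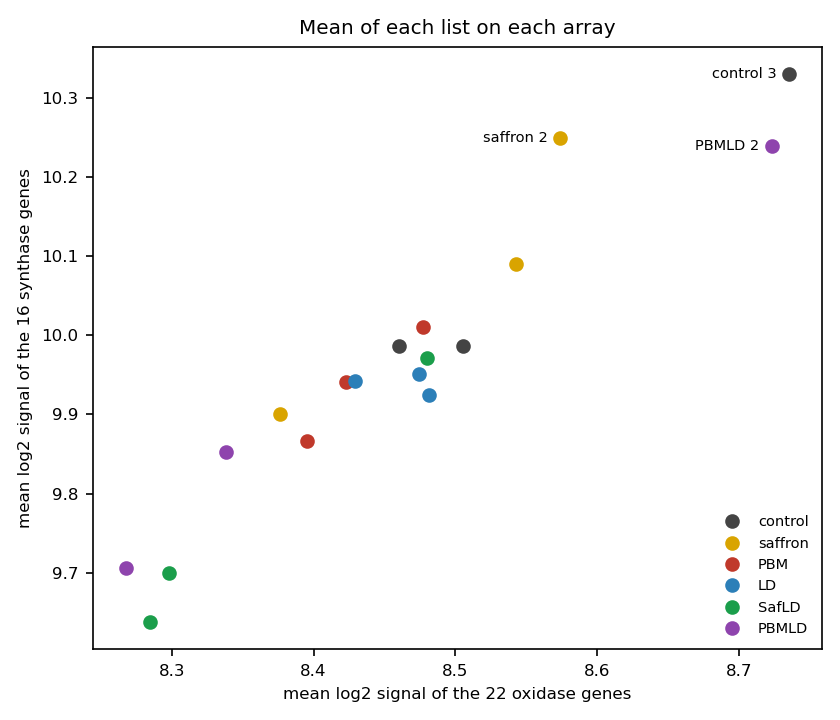
Mean log2 signal of the 22 oxidase genes (x axis) against that of the 16 synthase genes (y axis) on each of the 18 arrays, coloured by group. The arrays line up from SafLD 2, SafLD 3 and PBMLD 1 at the low end to saffron 2, PBMLD 2 and control 3 at the high end.

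The synthase mean per array was 9.99, 9.99 and 10.33 in control and 9.97, 9.70 and 9.64 in SafLD, and all SafLD arrays were lower than all control arrays. The oxidase mean was 8.50, 8.46 and 8.73 in control and 8.48, 8.30 and 8.29 in SafLD, where the groups overlapped. Lower SafLD means without overlap were not particular to the synthase. For complex III the highest SafLD array was 9.485 and the lowest control array 9.513, and for complex II 9.534 and 9.594. Leaving out control array 3 moved the synthase median from -0.16 to -0.015 in LD and from -0.17 to -0.00350 in PBM.

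Markers of some retinal cells moved beside these genes. Muller cell markers overlapped, with array means of 10.34 to 10.5 in SafLD and 10.3 to 10.52 in control. Pigment epithelium markers did too (4.60 to 5.53 and 4.69 to 5.63). In SafLD, where 1.34% of all probe sets passed lower, 3 of 10 rod markers did so (Gnat1, Gngt1 and Rcvrn). Rod array means were 12.44 to 12.53 in SafLD and 12.75 to 12.85 in control. In PBMLD they were 12.43 to 12.63, also below every control array. Of the ganglion cell markers 7 of 7 lay below control in SafLD and 2 passed (Thy1 and Sncg), with array means of 8.55 to 8.87 against 9.16 to 9.44. Bipolar cell markers passed lower in 2 of 6 cases (Pcp2 and Gng13), with array means of 9.41 to 9.56 against 9.70 to 9.96 in control, without overlap. Endothelium markers had array means of 6.78 to 6.89, below every control array (highest 7.18), with 0 of 5 past the test. Pericyte and smooth muscle markers had array means of 6.54 to 7.06 in SafLD and 6.74 to 6.86 in control, and 0 of 9 passed, 6 lying below control. In LD 2 of 10 rod markers passed lower, where 1.11% of all probe sets passed in either direction. The 15 lens markers all lay above control in LD with 0 past the test. LD arrays 1 and 3 were highest for them (11.15 and 11.00, against 8.85 to 9.42 in control). In PBM no marker passed in any of the marker lists. Microglia markers lay below control there in 7 of 8 cases, with array means of 5.64 to 5.75, below the lowest control array (5.83). Blood markers lay below in 3 of 3, with array means of 6.34 to 6.71 against 6.97 to 7.35, also without overlap. The part of these cells in the oxidase and synthase values was not tested.

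Around the 2 enzymes, 50 of 62 listed genes of complexes II and III, cytochrome c, assembly, nucleotide exchange and mitochondrial biogenesis were measured. The gene that passed was Uqcrh, the hinge subunit of complex III, which was -0.86 in SafLD against control (SE 0.20, adjusted p = 0.0264) and -1.05 against saffron (SE 0.20, adjusted p = 0.0076). In PBM it was -0.64 (adjusted p = 0.283) and lay below control without overlap. Over the 50 genes the SafLD median was -0.03, with 21 above and 29 below control, and the 9 complex III genes had a median of -0.15. The array means of the 50 genes were 8.976 to 9.018 in SafLD, below all control arrays (9.045 to 9.117). Nucleotide exchange genes were also lower without overlap (11.04 to 11.07 against 11.14 to 11.16). The array means of cytochrome c, assembly and biogenesis genes overlapped control. Over all 18 arrays the signals most like that of Atp5mg among the 38 genes were Cox7b (r = 0.917) and Cox7a2l (r = 0.903), and those most like Cox4i2 were Cox7a2l (r = 0.828) and Cox6b2 (r = 0.822). Cox11 ran the other way, with r = -0.77 against Cox4i2. These r values include the differences between groups. In deviations from group means, Atp5pb was most like Atp5mg (r = 0.9515), with 0.901 for Cox7b and 0.812 for Cox7a2l. Cox4i1 was then most like Cox4i2 (r = 0.884), with 0.58 for Cox6b2, -0.605 for Cox11 and -0.759 for Cox15.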

How the data were processed

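RNA of whole retinas was hybridised to 18 arrays, 3 for each of 6 groups, and groups were taken from the sample titles. The authors deposited log2 intensities summarised with RMA, with 1 value for a probe set on an array. Affymetrix Expression Console 1.1.2800.19935 is the program in the submitters' processing notes. RMA includes quantile normalization, which forces arrays to nearly the same distribution, so only changes relative to other genes can be seen. The build behind the probe annotation was not given in the sources used here. No count or depth exists for arrays, and the number of arrays limits the precision. Scan dates were not in the table, so batches were not examined.

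Gene symbols came from the platform annotation. Of 29214 probe sets, 15310 had 1 symbol, 323 several and 13581 none. None of the 323 was used. Of 38 gene identifiers, 37 matched RefSeq (GRCr8). Group means over all 18 arrays were modelled in limma 3.58.1 (R 4.3.3, statmod 1.5.0), with 12 residual degrees of freedom and 5.05 prior ones, two-sided, adjusted by Benjamini-Hochberg. The fit was tested on simulated data. Because nothing beyond the design text says how arrays relate to animals, p-values measure the spread between these arrays. Same-numbered arrays were compared over 45 pairs (r from -0.386 to 0.306, 10 above 0.1), and the numbers were not taken as pairs.

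The members and gene lists were chosen with earlier results of these data known. The genes named are members past the test, the 3 largest differences of each enzyme against control, Cox4i1, Cox4i2, Atp5f1b and Atp5mg, and pathway genes past the test. Others were named after their values were seen. Alternatives were a fold limit of 2, further normalization, array weights, other variance models, fits of the compared groups alone, a filter on dim probe sets, subunits alone, the methods' t-test, a block on the replicate number and leaving out each array. For the oxidase, the subunits alone were the 9 made in most tissues.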

Additional observations from a re-analysis of the deposited data

How the results depend on the processing

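Leaving out 1 array at a time gave from 0 to 2 oxidase genes past the test in SafLD against control (2 with all arrays), 0 to 2 in PBMLD against control and 0 to 1 in PBMLD against PBM. For the synthase it gave 0 to 1 in SafLD against control, PBMLD against control, PBMLD against LD and SafLD against saffron. Array weights raised the oxidase count to 2 in PBM, 7 in SafLD, 5 in SafLD against saffron and 1 each in PBMLD against control, LD and PBM and in SafLD against LD, and the synthase count to 4 in SafLD, 2 in SafLD against LD and against saffron, and 1 in PBMLD against control and LD. In SafLD against control the oxidase count was 1 with a fold above 2 required. It was 0 over the 9 subunits made in most tissues, which leave out the tissue isoforms Cox4i2 and Cox6b2. The methods' t-test there gave 1 oxidase gene (unadjusted, fold above 2) and 0 (adjusted). The synthase count there was 0 with a fold above 2, 0 under the methods' t-test in both forms, 2 with a variance trend and robust fitting, median centring or dim probe sets left out, and 0 with the replicate block, where Atp5mg had an adjusted p of 0.0536. The replicate block changed no other call. In PBMLD against control the synthase count was 1 with dim probe sets left out and under the unadjusted t-test. In SafLD against saffron the fit of those groups alone gave 1 oxidase gene and 0 synthase genes, and the adjusted t-test 0.

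With 1 array left out, the oxidase median in SafLD against LD ranged from -0.195 to -0.063, and in the saffron interaction from -0.172 to 0.0382. In SafLD against saffron it was -0.31 over the 9 subunits made in most tissues and -0.26 with dim probe sets left out. The synthase median ranged from -0.23 to -0.0155 in LD and from -0.255 to -0.00350 in PBM. The cause of these changes was not tested.

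Small differences changed sign. With 1 array left out, Cox4i1 against control ranged from -0.225 to 0.0354 in LD, from -0.0716 to 0.145 in PBM, from -0.261 to 0.23 in PBMLD and from -0.188 to 0.0287 in saffron, and in saffron Atp5mg ranged from -0.091 to 0.235 and Atp5me from -0.0194 to 0.402. Array weights turned Cox4i1 to 0.0602 in LD, -0.0439 in PBMLD and 0.0263 in saffron, and median centring turned it to -0.00617 in PBM. Quantile normalization turned Atp5f1b to 0.0327 in PBMLD and 0.0555 in SafLD.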
